A study of Arabidopsis thaliana and Lotus japonicus with 44 samples.

Results

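Among 49868 annotated *Lotus japonicus* transcripts, 42 changed in the same direction with an arbuscular mycorrhizal fungus (AMF) in roots of *cyclops-4*, a knockout mutant of *IPD3*, and in roots of wild type Gifu. They were chosen from the counts themselves. Each count was scaled to a library total of 1000000 (CPM), and 0.5 was added to the group means. A member had a +AMF to −AMF ratio of at least 1.5, or its inverse, in both genotypes, with no overlap of +AMF and −AMF libraries in either and with a mean of at least 10 counts in the higher group of each. The count minimum in both genotypes was met by 10037 transcripts, so that the members were 0.418% of them. Of the 42 members, 18 were higher and 24 were lower with AMF, and each came from a different gene. Because these ratios chose the members, they are given below as a description with no test.

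The study sequenced polyadenylated RNA from 6-week-old roots of Lotus and of *Arabidopsis thaliana* after exposure to the AMF *Rhizophagus* (+AMF) or without it (−AMF), to ask which responses depend on IPD3. Lotus was grown on 1/2 MS medium and comprised 3 *cyclops-4* +AMF, 3 *cyclops-4* −AMF, 4 Gifu +AMF and 4 Gifu −AMF libraries. Arabidopsis, which has lost *IPD3*, comprised wild type Col-0 and the lines 308 and 310, which carry the *IPD3Min* transgene, a truncated and constitutively active IPD3, under a ubiquitin promoter, each on 1/2 MS with and without AMF and with 3 or 4 libraries per group. Each replicate was a pool of roots from several seedlings of a single plate, and −AMF plants received water. All *cyclops-4* libraries came from the same mutant allele, and lines 308 and 310 are independent transformants. The gene mutated in *cyclops-4* was not checked here, since its transcript identifier is not given in the sources used here, and neither were root marker genes, because the Lotus count files do not pair identifiers with gene names.

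Arbuscular mycorrhizal fungi release signals that root cells perceive before colonization, and these signals are relayed through the common symbiosis pathway to calcium oscillations in the nucleus. A calcium- and calmodulin-dependent kinase, known as DMI3 or CCaMK, decodes the oscillations and phosphorylates IPD3, which is called CYCLOPS in Lotus, so that the transcription factor can act on symbiosis genes. Roots also hold pathways that respond to fungi without this kinase and factor, such as chitin-triggered defense and cell wall strengthening.

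Library totals ran from 2466468 to 2871520 counts in Lotus and from 13185910 to 14328336 counts in the 22 Arabidopsis libraries on 1/2 MS. The Lotus counts were assigned with the forward strand setting and the Arabidopsis counts with the reverse setting, although a single strand-specific preparation is described for both species. Transcripts with an exon opposite an exon of the other strand made up 12.1% of the Lotus annotation and took 74.4% to 81.9% of the Lotus counts, whereas in Arabidopsis such transcripts made up 22.2% of the annotation and took 25.6% to 26.1% of the counts. Which strand the libraries keep is not given in the sources used here. A Lotus value below is therefore a level of read pairs assigned to a transcript under the forward setting, and RNA of the gene and RNA of its opposite strand cannot be told apart. The 2 highest Lotus shares on such transcripts, 81.9% and 79.7%, were those of Gifu −AMF replicate 2 and *cyclops-4* +AMF replicate 3. The 42 members held 1.18% to 1.63% of the counts of a library.

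Applied to *cyclops-4* alone, the rule took 150 of 10519 transcripts as higher with AMF (1.43%) and 255 as lower (2.42%). In Gifu alone it took 308 of 10340 as higher (2.98%) and 143 as lower (1.38%). Both genotypes met the rule in the same direction for the 42 members and in opposite directions for 9 other transcripts (0.0897%). A same-direction ratio of at least 1.5 in both genotypes was much more common than membership, since 230 transcripts with enough counts had it and 188 of those were kept out by overlapping libraries.

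**Figure D1:**
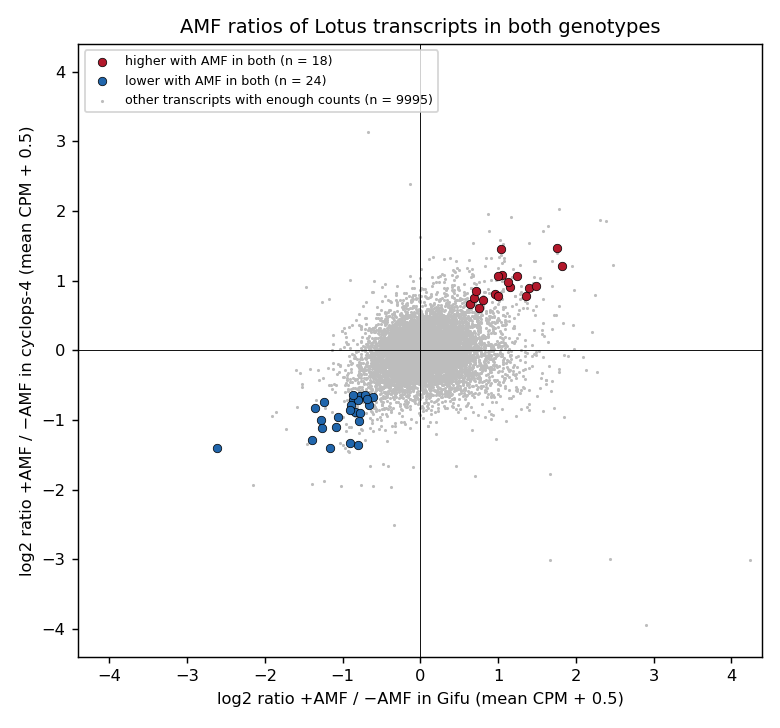
Log2 ratios of +AMF over −AMF in *cyclops-4* (vertical axis) against those in Gifu (horizontal axis), from group mean CPM plus 0.5, for 10037 Lotus transcripts with enough counts. Red points are the 18 members higher and blue points the 24 members lower with AMF in both genotypes, and 188 grey points have ratios of at least 1.5 in the same direction in both genotypes but overlapping libraries.

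The members that were higher with AMF had log2 ratios between 0.61 and 1.47 in *cyclops-4* (median 0.90) and between 0.64 and 1.82 in Gifu (median 1.04). The lower members had log2 ratios between −1.41 and −0.64 in *cyclops-4* (median −0.87) and between −2.62 and −0.60 in Gifu (median −0.88). Over all 10037 transcripts the median log2 ratio was −0.02 in *cyclops-4* and 0.03 in Gifu. In absolute size, the ratio was larger in *cyclops-4* for 16 members and larger in Gifu for 26, and for 25 members the 2 genotypes were within 0.2 on the log2 scale. Only 5 higher and 6 lower members reached 2-fold in both genotypes.

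When the members were ranked by the smaller of their ratios in the 2 genotypes, the first was LotjaGi2g1v0329400.1, which the study pairs with Arabidopsis *CAD8*. CAD8 belongs to the cinnamyl alcohol dehydrogenases, enzymes that reduce cinnamaldehydes to the alcohols from which lignin is built, and in Arabidopsis it is known as an elicitor-activated gene. The transcript lies on the minus strand of chromosome 2, at 80494021 to 80496212 of the Gifu V1.2 assembly, has 5 exons over 1779 bases and shares no exon base with the opposite strand. It had 266, 292 and 126 CPM in *cyclops-4* +AMF libraries, against 92.7, 48.6 and 104 CPM in *cyclops-4* −AMF libraries. In Gifu it had 357, 216, 421 and 234 CPM in +AMF libraries, against 115, 47, 127 and 72.8 CPM in −AMF libraries. The lowest +AMF libraries, *cyclops-4* replicate 3 and Gifu replicate 2, were still above every −AMF library of their own genotype, but the *cyclops-4* value of 126 CPM was just below the highest Gifu −AMF value of 127 CPM. The log2 ratio was 1.47 in *cyclops-4* and 1.76 in Gifu, or 2.77-fold and 3.38-fold.

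Neighbouring transcripts on the right of the *CAD8* homolog had ratios of the same direction. A transcript at 80500025 to 80502835 had log2 ratios of 1.34 in *cyclops-4* and 1.01 in Gifu, and a low-confidence transcript opposite to it, at 80500355 to 80515469, had 1.17 in *cyclops-4* and 1.19 in Gifu. Both met the rule in *cyclops-4* but not in Gifu, where their libraries overlapped. The next transcript, at 80515663 to 80521060, had log2 ratios of 0.48 in *cyclops-4* and 0.11 in Gifu and met the rule in neither. The nearest annotated transcripts on the left were at mean levels of 0.259 CPM and below, too low for a ratio.

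LotjaGi5g1v0253700.1 is paired by the study with Arabidopsis *BTR1*, a KH-domain protein that binds the RNA of tomato mosaic virus and is known in Arabidopsis to limit its multiplication. It lies on the plus strand of chromosome 5, at 56257442 to 56266207, with 8 exons and no overlap with exons of the opposite strand. The *cyclops-4* +AMF libraries had 243, 241 and 245 CPM, against 107, 120 and 119 CPM in *cyclops-4* −AMF. Gifu +AMF libraries had 329, 260, 298 and 226 CPM, against 163, 129, 133 and 131 CPM in Gifu −AMF. All 7 +AMF libraries were above all 7 −AMF libraries, and the spread within *cyclops-4* was small, with 243 ± 2.30 CPM in +AMF and 116 ± 7.32 CPM in −AMF libraries (SD, n = 3 each). The log2 ratio was 1.07 in *cyclops-4* and 1.00 in Gifu. A second annotated transcript of the gene had no counts in any Lotus library, and pairs that fell on exons of both were not counted for either.

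A further homolog that the study names, that of *OBP4*, a DOF-type transcription factor of Arabidopsis, did not meet the rule. Its transcript LotjaGi1g1v0209300.1, on chromosome 1, had 11, 6 and 8 counts in *cyclops-4* +AMF libraries, against 35, 38 and 32 counts in *cyclops-4* −AMF. In Gifu it had 5, 4, 1 and 6 counts in +AMF libraries, against 14, 4, 11 and 21 counts in −AMF libraries. The groups did not overlap in *cyclops-4*, with a log2 ratio of −1.92. In Gifu the log2 ratio was −1.40, but Gifu −AMF replicate 2 lay within the Gifu +AMF libraries. The study reports this homolog as differentially expressed with AMF, and lower, in both Lotus genotypes.

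Among members without a paired gene name, LotjaGi4g1v0249900.1 and LotjaGi1g1v0490600.1 were the first increases when ranked by the smaller of the 2 genotypes' ratios. LotjaGi4g1v0249900.1 (chromosome 4, 60300544 to 60303347) had 5.57, 8.27 and 4.21 CPM in *cyclops-4* +AMF libraries, against 2.88, 2.25 and 1.81 CPM in *cyclops-4* −AMF. It had 11.6, 9.49, 4.41 and 7.22 CPM in Gifu +AMF libraries, against 2.59, 0, 3.75 and 1.48 CPM in Gifu −AMF. These levels correspond to few read pairs, and the log2 ratios were 1.21 in *cyclops-4* and 1.82 in Gifu, or 1.48 in Gifu without the −AMF replicate 2 that was at 0.

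LotjaGi1g1v0490600.1 (chromosome 1, 100411433 to 100414475) had 50.8, 38.5 and 22.2 CPM in *cyclops-4* +AMF libraries, against 19.5, 13.1 and 19.9 CPM in *cyclops-4* −AMF. Gifu +AMF libraries had 60.5, 40.1, 83.4 and 48.3 CPM, against 37, 12.2, 31.2 and 16.3 CPM in Gifu −AMF. The groups were separate within each genotype, with log2 ratios of 1.07 in *cyclops-4* and 1.25 in Gifu, yet *cyclops-4* +AMF replicate 3 was below the highest Gifu −AMF library. Of its exon length, 55% lies opposite exons of a transcript of the other strand, which averaged 1147 CPM against 35.2 CPM for the member and had log2 ratios of 0.78 in *cyclops-4* and 1.21 in Gifu. The part of the opposite transcript in the ratio of the member was not tested.

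Ranked by the smaller of the 2 genotypes' ratios, the first decreases were those of LotjaGi3g1v0493300.3 and LotjaGi6g1v0172800_LC.1. LotjaGi3g1v0493300.3 (chromosome 3, 91163665 to 91187409) had 20.5, 27.0 and 37.1 CPM in *cyclops-4* +AMF libraries, against 86.5, 52.8 and 86.0 CPM in *cyclops-4* −AMF. In Gifu it had 15.8, 24.1, 8.82 and 21.3 CPM in +AMF libraries, against 42.2, 266, 43.2 and 88.0 CPM in −AMF libraries. A single library, Gifu −AMF replicate 2, was far above the others. The log2 ratio was −1.40 in *cyclops-4* and −2.62 in Gifu, and −1.69 in Gifu without that library. Of the exon length of this member, 82.5% lies opposite exons of low-confidence transcripts of the other strand, which had no counts in any library.

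LotjaGi6g1v0172800_LC.1 is a single-exon, low-confidence gene model on chromosome 6, at 46117689 to 46122683. It had 81.5, 92.7 and 229 CPM in *cyclops-4* +AMF libraries, against 338, 375 and 271 CPM in *cyclops-4* −AMF. Gifu +AMF libraries had 112, 149, 38.9 and 169 CPM, against 268, 382, 256 and 330 CPM in Gifu −AMF. All +AMF libraries of both genotypes were below all −AMF libraries, with *cyclops-4* +AMF replicate 3 the closest, and the log2 ratios were −1.29 in *cyclops-4* and −1.40 in Gifu.

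**Figure D2:**
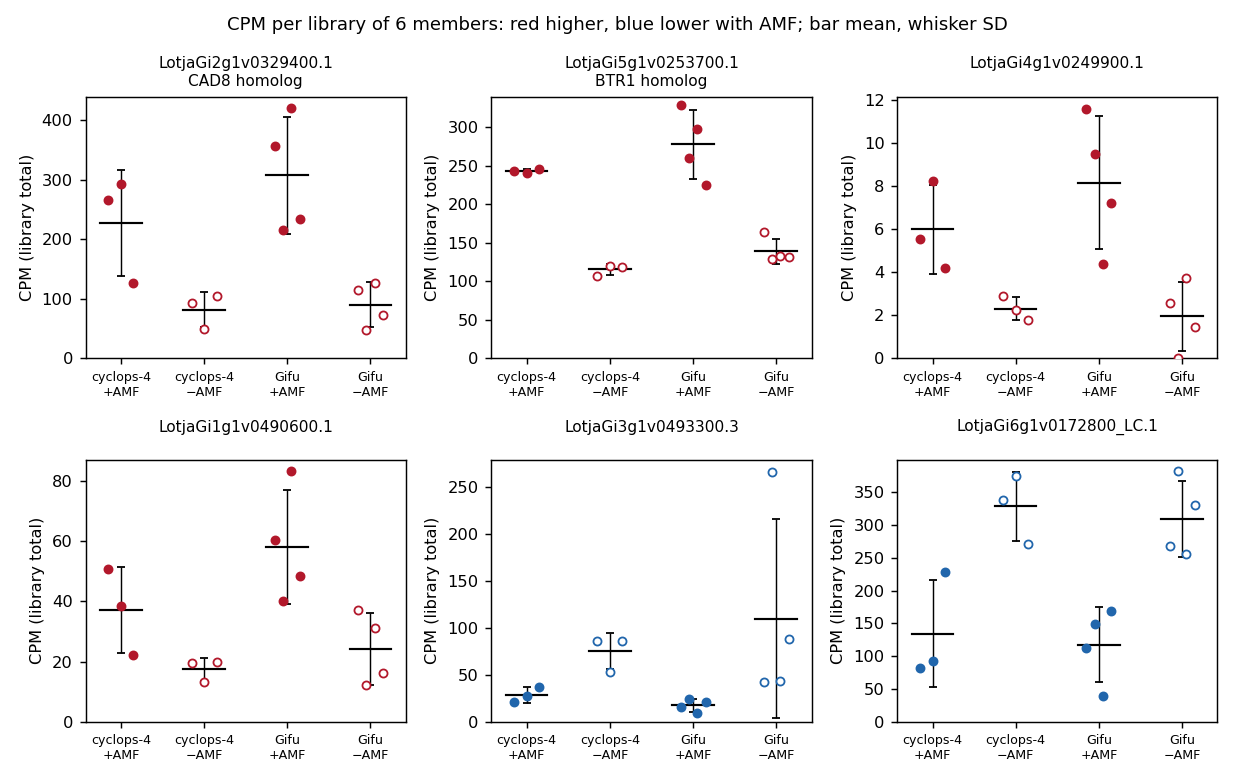
CPM by library total (vertical axis) of the 6 members named by identifier in *cyclops-4* +AMF, *cyclops-4* −AMF, Gifu +AMF and Gifu −AMF, with 1 point per library, a bar at the group mean and a whisker of 1 SD. Filled +AMF points do not overlap open −AMF points within a genotype, and the Gifu −AMF library at 266 CPM stands above the others of LotjaGi3g1v0493300.3.

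The members spanned a wide range of abundance. Averaged over all 14 libraries they ran from 3.18 to 5796 CPM with a median of 32.4 CPM, beside a median of 15 CPM over the 10037 transcripts with enough counts. At least 1 group mean was above 100 CPM for 13 members, and all 4 group means were below 10 CPM for 8 members.

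The most abundant member was a lower one on chromosome 3, at 82927325 to 82937329. It averaged 4001 ± 844 CPM in *cyclops-4* +AMF and 8691 ± 1780 CPM in *cyclops-4* −AMF libraries (SD, n = 3 each), and 3163 ± 838 CPM in Gifu +AMF and 7605 ± 1368 CPM in Gifu −AMF libraries (SD, n = 4 each). The log2 ratios were −1.12 in *cyclops-4* and −1.27 in Gifu. A transcript of the other strand with the same start and end averaged 659 CPM and had log2 ratios of −0.34 in *cyclops-4* and −0.16 in Gifu.

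The most abundant of the higher members lies on chromosome 2, at 82165947 to 82184551, and has 23 exons. Its levels were 5337 ± 791 CPM in *cyclops-4* +AMF and 2968 ± 287 CPM in *cyclops-4* −AMF libraries (SD, n = 3 each), and 6154 ± 1142 CPM in Gifu +AMF and 3749 ± 708 CPM in Gifu −AMF libraries (SD, n = 4 each). The log2 ratios were 0.85 in *cyclops-4* and 0.72 in Gifu. Opposite to 83.9% of its exon length lies a transcript that averaged 1037 CPM, with log2 ratios of −0.03 in *cyclops-4* and −0.07 in Gifu.

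A higher member of similar ratio in both genotypes lies on chromosome 4, at 83550708 to 83555157, with no exon overlap on the opposite strand. It averaged 286.8 ± 59 CPM in *cyclops-4* +AMF and 134.7 ± 55.3 CPM in *cyclops-4* −AMF (SD, n = 3 each), and 309 ± 57.4 CPM in Gifu +AMF and 149.6 ± 51.2 CPM in Gifu −AMF (SD, n = 4 each). The log2 ratios of 1.09 in *cyclops-4* and 1.04 in Gifu were nearly equal.

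The members were spread over the chromosomes, with 12 on chromosome 1, 8 on chromosome 2, 9 on chromosome 3, 6 on chromosome 4, 4 on chromosome 5 and 3 on chromosome 6, or between 0.254% and 0.547% of the transcripts with enough counts there. The closest pair lay 52.7 kb apart on chromosome 3 and consisted of LotjaGi3g1v0493300.3 and a single-exon transcript at 91240072 to 91245610, both lower with AMF. The single-exon transcript averaged 226.9 ± 36.3 CPM in *cyclops-4* +AMF and 373.7 ± 91.6 CPM in *cyclops-4* −AMF (SD, n = 3 each), and 206.8 ± 42.5 CPM in Gifu +AMF and 362.0 ± 53.3 CPM in Gifu −AMF (SD, n = 4 each). No other neighbouring members were closer than 1010 kb.

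The gene models of the members were set beside those of all transcripts with enough counts. An exon opposite an exon of the other strand was present in 18 of the 42 members (42.9%), against 24.4% of all transcripts with enough counts. In each of these 18, the overlap covered at least 52.4% of the exon length, and 16.3% of all transcripts with enough counts had an overlap of over 50%. It was found in 6 of the 18 higher members and in 12 of the 24 lower members. Genes with more than 1 transcript held 17 members (40.5%, against 18%), low-confidence models 6 (14.3%, against 11.1%) and single-exon models 6 (14.3%, against 13.7%). These shares are a description of the list. They were not matched for abundance, which was higher among the members (median 32.4 CPM, against 15 CPM).

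The opposite transcripts did not follow the members throughout. For 14 of the 18 members the opposite transcript with the longest overlap had enough counts, and its log2 ratio had the direction of the member in both genotypes for 8, the other direction in both for 4 and differing directions for 2. The share of ratios with the same direction in both genotypes over all transcripts is not given here. None of the opposite transcripts met the rule, which is near the 0.418% of all transcripts with enough counts that met it. Of 35 other transcripts from the members' own genes, 25 had no counts in any library and 1 had enough counts, with the same direction as its member in both genotypes. When counts were summed per gene, 38 of the 42 members' genes met the rule.

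The separation of +AMF from −AMF libraries was set by different libraries for different members. *cyclops-4* +AMF replicate 3 was the closest of its group to the −AMF libraries for 27 of the 42 members, and in *cyclops-4* −AMF replicate 3 was the closest to the +AMF libraries for 22. In Gifu, the closest were +AMF replicate 4 for 17 members and −AMF replicate 3 for 21. Leaving out a library makes it easier for groups not to overlap. Without *cyclops-4* +AMF replicate 3, the rule took 102 transcripts instead of 42, of which 40 were original members. Without *cyclops-4* −AMF replicate 2 it took 31 transcripts, 28 of them original members. Whichever single library was left out, 23 of the 42 members met the rule. With TMM scaling in place of library totals, 30 of the 42 members met the rule, and 18 members met it in all of these settings.

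Averaged over the 18 higher members, *cyclops-4* +AMF libraries deviated by 0.56, 0.43 and 0.11 from the mean of all 14 libraries on the log2(CPM + 0.5) scale, against −0.35, −0.93 and −0.49 in *cyclops-4* −AMF. The Gifu +AMF libraries deviated by 0.81, 0.56, 0.78 and 0.50, against −0.37, −0.97, −0.14 and −0.51 in Gifu −AMF. Every +AMF library was above every −AMF library in this average, an order that the rule had fixed in advance within each genotype. For the lower members, the deviations were −0.66, −0.42 and −0.24 in *cyclops-4* +AMF, against 0.44, 0.69 and 0.43 in *cyclops-4* −AMF. They were −0.52, −0.37, −0.88 and −0.39 in Gifu +AMF, against 0.59, 0.46, 0.24 and 0.63 in Gifu −AMF. *cyclops-4* +AMF replicate 3, with 0.11 and −0.24, was the +AMF library nearest to 0 in both sets. With both genotypes pooled, all 7 +AMF libraries lay on one side of all 7 −AMF libraries for 24 of the 42 members (9 higher and 15 lower) and for 57 transcripts in all (0.568%), where the rule had already separated the libraries within each genotype.

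**Figure D3:**
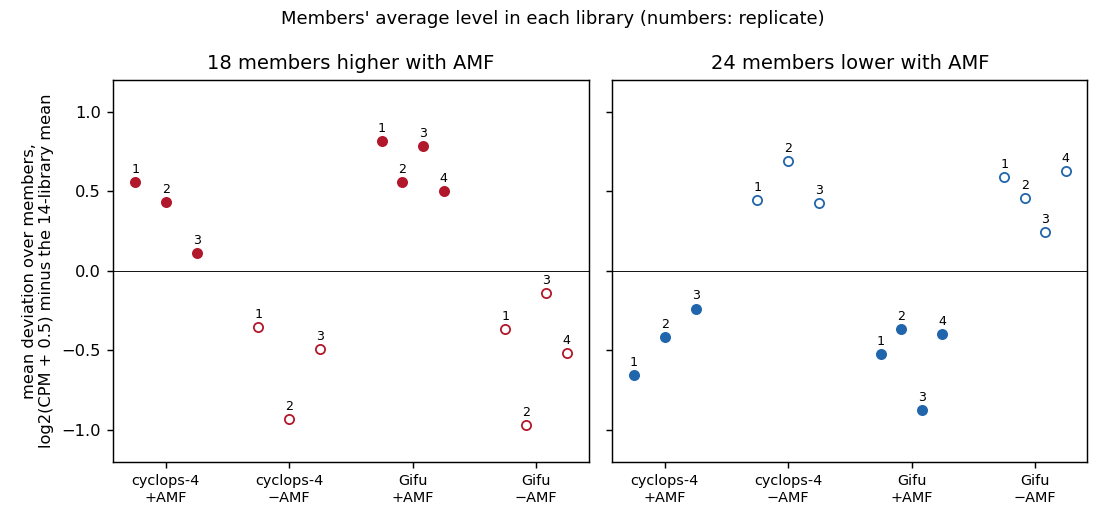
Mean deviation of the 18 higher members (left) and the 24 lower members (right) from their 14-library mean on the log2(CPM + 0.5) scale (vertical axis) for each library, numbered by replicate. *cyclops-4* +AMF replicate 3 lies at 0.11 and −0.24, nearer to 0 than the other +AMF libraries. The separation of +AMF from −AMF points within a genotype follows from the rule.

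The level of the members was then compared between genotypes within each treatment, a contrast that the rule did not use although the libraries are the same. DEGs were transcripts with an adjusted p under 0.05 in edgeR's quasi-likelihood test, with Benjamini-Hochberg adjustment over 12616 transcripts. Among the 42 members, 0 were DEGs between *cyclops-4* and Gifu with AMF, and 0 without AMF. Over all transcripts, 17 were DEGs with AMF (0.135%) and 327 without AMF (2.59%). A count of 0 among 42 is near these shares. DESeq2 also called 0 members in both contrasts. At an unadjusted p under 0.05, edgeR gave 8 members with AMF (19%, against 5.28% of all transcripts) and 4 without AMF (9.52%, against 11.9%). The demand for no overlap favours transcripts with little spread between libraries. The shares of members and of all transcripts are therefore not directly comparable. Their differences went opposite ways with and without AMF and are not read as a result about genotype. Why the shares differ was not tested.

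The log2 fold changes of the members between *cyclops-4* and Gifu ran from −0.75 to 0.94 with AMF, with standard errors from 0.18 to 0.58, and from −1.26 to 0.77 without AMF, with standard errors from 0.20 to 0.61. The median absolute log2 fold change was 0.25 with AMF and 0.24 without AMF for the members, against 0.19 with AMF and 0.24 without AMF for all 12616 transcripts. The higher members had a median log2 fold change of −0.27 with AMF and −0.24 without AMF. The lower members had medians of 0.05 with AMF and −0.04 without AMF. Medians over all 12616 transcripts were 0.00 with AMF and −0.04 without AMF. A value below 0 means a lower level in *cyclops-4*. With AMF, 16 of the 18 higher members, 11 of the 24 lower members and 6289 of all 12616 transcripts were below 0. Without AMF, 13 of the 18, 15 of the 24 and 6906 of all transcripts were below 0. No member passed the threshold in either contrast. The members share the libraries that chose them and are not independent, so these counts are a description with no test.

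For the *CAD8* homolog the log2 fold change between *cyclops-4* and Gifu was −0.49 ± 0.28 with AMF (SE, edgeR adjusted p = 0.985) and −0.20 ± 0.25 without AMF (adjusted p = 0.836). The *BTR1* homolog had −0.19 ± 0.19 with AMF (SE, edgeR adjusted p = 0.999) and −0.36 ± 0.20 without AMF (adjusted p = 0.532). Neither was a DEG in either contrast, which does not show equal levels. For the *BTR1* homolog without AMF, all *cyclops-4* libraries (107 to 120 CPM) lay below all Gifu libraries (129 to 163 CPM).

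LotjaGi3g1v0493300.3 showed the widest gap between treatments in the genotype comparison, with 0.72 ± 0.30 with AMF (SE, edgeR adjusted p = 0.867) and −0.78 ± 0.43 without AMF (adjusted p = 0.507). The value without AMF depended on 1 library, since without Gifu −AMF replicate 2 it was 0.42. This member was a DEG without AMF in edgeR's likelihood-ratio test with common dispersion (adjusted p = 0.0191) and with no filter on low counts (adjusted p = 0.0387). In the quasi-likelihood test, the lowest adjusted p of a member was 0.759 with AMF and 0.242 without AMF. The value of 0.242 belonged to a transcript at 4646643 to 4652240 on chromosome 6 that is lower with AMF. It averaged 5.86 ± 2.07 CPM in *cyclops-4* +AMF and 3.02 ± 0.56 CPM in Gifu +AMF libraries, and 11 ± 4.13 CPM in *cyclops-4* −AMF and 6.12 ± 1.96 CPM in Gifu −AMF libraries (SD, n = 3 for *cyclops-4* and 4 for Gifu).

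**Figure D4:**
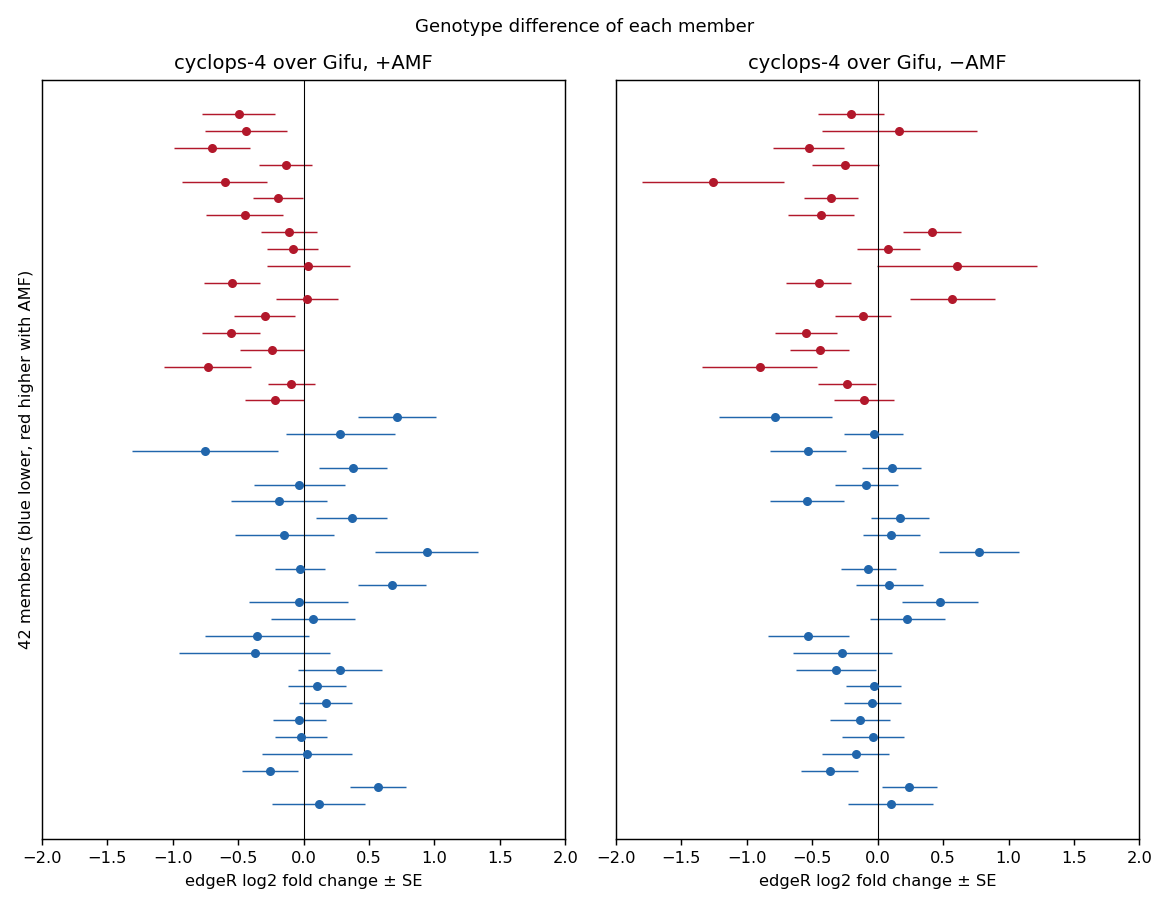
Log2 fold change of *cyclops-4* over Gifu with its standard error (horizontal axis, edgeR) for the 42 members (1 per line), with AMF on the left and without AMF on the right. Red marks the 18 members higher and blue the 24 members lower with AMF. With AMF, 16 of the 18 red and 11 of the 24 blue points lie below 0, against 6289 of all 12616 transcripts. Without AMF, 13 red and 15 blue points lie below 0, against 6906 of all. The members share libraries and are not independent.

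The Arabidopsis genes named for the 2 paired members gave a comparison in libraries that the rule had not used. *CAD8* (AT4G37990) had 8 counts in all 22 libraries together and at most 3 in any library, too few for a test. *BTR1* (AT5G04430) was measured through its transcript AT5G04430.2. In Col-0 it had 5.53, 4.68, 4.71 and 3.56 CPM in +AMF libraries, against 5.76, 5.53, 5.30 and 4.11 CPM in −AMF libraries. Line 308 had 4.77, 4.77, 3.98 and 5.16 CPM in +AMF libraries, against 3.81, 6.12, 4.67 and 5.30 CPM in −AMF libraries. In line 310 it had 4.69, 3.88 and 4.23 CPM in +AMF libraries, against 4.14, 4.51 and 4.53 CPM in −AMF libraries. The groups overlapped in all 3 lines.

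The AMF log2 fold change of *BTR1* was −0.15 ± 0.17 in Col-0 (SE, edgeR adjusted p = 0.697), −0.06 ± 0.17 in line 308 (adjusted p = 0.938) and −0.03 ± 0.18 in line 310 (adjusted p = 0.998). Among 16412 Arabidopsis transcripts, AMF gave 141 DEGs in Col-0 (0.859%), 2 in line 308 (0.0122%) and 0 in line 310. The Lotus homolog had log2 ratios of 1.07 in *cyclops-4* and 1.00 in Gifu, counted with another strand setting and at another depth.

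Around the ratio threshold, the member closest to it from inside lies on chromosome 1 at 126852391 to 126855230, with log2 ratios of −0.67 in *cyclops-4* and −0.60 in Gifu. Just outside it was a transcript on chromosome 5 at 34636758 to 34644483, with log2 ratios of −0.58 in *cyclops-4* and −0.78 in Gifu. In all, 64 transcripts met every condition except the ratio, and 11 met every condition except the count minimum.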

How the data were processed

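The deposited files hold raw counts, which the authors assigned to transcripts with featureCounts 2.0.1 on reads cleaned with SOAPnuke and split between plant and fungal genomes with BBSplit. Pairs that overlapped more than 1 transcript were dropped. Lotus was counted on Gifu V1.2 and Arabidopsis on Araport 11. The labels list HISAT2 and DESeq2, with build TAIR10, for every sample, and the study's methods name edgeR.

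CPM used library totals. Genotype and Arabidopsis AMF contrasts were tested with edgeR 4.0.16 (quasi-likelihood, TMM, limma 3.58.1, R 4.3.3), each on its own 2 groups, for transcripts that reached 10 counts in 1 or more libraries of their species on 1/2 MS, with Benjamini-Hochberg adjustment and a threshold of 0.05. Alternatives were DESeq2 1.42.0, a likelihood-ratio test with common dispersion, no TMM, no filter, filterByExpr, a fit on all Lotus groups, a replicate block, no transcripts with opposite-strand overlap, and leaving out each library. On simulated counts, 40.5% of 2-fold and 97.0% of 4-fold changes were recovered with AMF, and 52.5% and 95.5% without AMF. No 2 replicates agreed within sampling noise (chi-square per degree of freedom of 4.06 or more). A replicate was a pool of seedling roots from a single plate, per the study's methods. Whether replicates of a group came from different plates is not given in the sources used here, and p-values measure the spread between these pools. Files were read with Python 3.11.15, numpy 2.4.6 and pandas 2.3.3, and figures drawn with matplotlib 3.10.9.

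The members and lists were chosen with earlier results of these data known. Identifiers are printed for members and a non-member that the study pairs with a gene name (its Lj2g0329400.1 is LotjaGi2g1v0329400.1), and for the 2 increases and 2 decreases with the largest ratio, taken as the smaller of the 2 genotypes' ratios. Other members were described by position for abundance, position or p after their values were seen. The 8 libraries on low-nutrient medium were not used here.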

Additional observations from a re-analysis of the deposited data

Results flagged for a closer look

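One value of a named member lay far from the rest of its group of 4 libraries. The *BTR1* homolog LotjaGi5g1v0253700.1 had 163 CPM in Gifu −AMF replicate 1, against 129 to 133 CPM in the other Gifu −AMF libraries, a gap of 0.895 of the group's range, above Dixon's limit. Of 22 groups of 4 libraries examined this way, 1 passed it, and chance alone flags about 1 in 20. The library with the high value remained below every Gifu +AMF library.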

How the results depend on the processing

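The list held 42 transcripts with TMM-scaled CPM as well, of which 30 were original members, and 11 with a ratio of 2. Leaving out each library gave 31 to 102 transcripts. TMM moved the median log2 ratio of all transcripts by 0.03 in *cyclops-4* and −0.01 in Gifu. All 42 kept their direction in both genotypes with TMM. That outcome was nearly fixed in advance, since the members were chosen for ratios of at least 1.5 or its inverse. Without AMF, 0 members were DEGs, and 1 with the likelihood-ratio test or with no filter. This was LotjaGi3g1v0493300.3, with adjusted p of 0.0191 and 0.0387. With AMF, 0 members were DEGs in every alternative run. DEGs over all transcripts ranged from 150 to 495 without AMF and from 4 to 137 with AMF.

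Over the left-out libraries, the log2 fold change between genotypes without AMF ranged from −0.41 to 0.074 for the *CAD8* homolog LotjaGi2g1v0329400.1, from −0.14 to 0.65 for LotjaGi4g1v0249900.1, from −1.08 to 0.42 for LotjaGi3g1v0493300.3 and from −0.15 to 0.24 for LotjaGi6g1v0172800_LC.1. The last was also 0.087 without TMM and 0.0034 with no filter, and with AMF it ranged from −0.51 to 0.58. *BTR1* in Arabidopsis ranged from −0.16 to 0.044 in line 308 and from −0.11 to 0.044 in line 310. None of these values was past the threshold. Counts of *BTR1* summed per gene and the Gifu ratios without −AMF replicate 2 were chosen after seeing the data. The cause of these shifts was not tested.

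Same-numbered libraries of the genotypes correlated between −0.163 and 0.228 in their deviations, which gave no clear sign that replicate numbers pair the samples. So few libraries cannot settle this, and pairing of +AMF with −AMF libraries within a Lotus genotype was not tested. With a replicate block, 0 members were DEGs in either contrast, and all DEGs numbered 266 without AMF and 4 with AMF. All 4 group means were below 10 CPM for 8 members, at Lotus library totals of 2466468 to 2871520 counts, and how depth limits these members was not tested.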
